A study of Mus musculus with 20 samples.

Results

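The balance between trimethylation and monomethylation of lysine 4 of histone H3 (H3K4me3 and H3K4me1) was examined at promoters of mouse embryo fibroblasts (MEFs) after deletion of Ash2l. Of the 20 ChIP-seq libraries of the series, 4 carry this question, namely H3K4me3 and H3K4me1 of KO +HOT cells of iMEF1 and iMEF2. The 4 matching KO -HOT libraries were used to show the balance before deletion. The cells have the Ash2l fl/fl Cre-ER genotype, in which 4-hydroxytamoxifen (HOT) activates a Cre recombinase fused to a hormone receptor domain, and an internal exon of Ash2l is removed. They were immortalized with an shRNA against p19Arf, so that control and deleted cells share this knockdown and both floxed alleles. +HOT cells received 5 nM HOT for 5 days and -HOT cells received ethanol for the same time. Each line gave 1 library per mark and condition, and the 2 lines, KO1 (iMEF1) and KO2 (iMEF2), served as the replicates. The series also holds 8 libraries of WT cells and 4 of input DNA, which enter no comparison below.

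Methylation of H3K4 is placed by KMT2 methyltransferase complexes, whose shared core of WDR5, RBBP5, ASH2L and DPY30 is needed for full activity. H3K4me3 is concentrated around the transcriptional start sites (TSS) of active genes and of CpG-rich promoters, while H3K4me1 marks enhancers and the flanks of promoters. The complexes are able to add methyl groups stepwise, and the demethylases of the KDM1 and KDM5 families remove them.

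Each H3K4me3 region was paired with every H3K4me1 region that shared at least 1 bp with it, and the reads per kb of both were compared within a line. The deposited H3K4me3 table listed 22343 regions, of which 15584 lay within 3000 bp of a TSS and are called promoters below. Of these promoters, 12583 had a paired H3K4me1 region, 2470 had none, and 531 lay in a stretch of chromosome 1 (chr1:19197749-145960211, mm9) for which the deposited H3K4me1 table of iMEF1 held no usable values. A minimum of more than 20 reads of either mark in both lines left 12064 promoters, which belonged to 10255 genes when the region nearest the TSS was taken for each gene. The 519 paired promoters under the minimum were not tested. Median region widths were 1287 bp for H3K4me3 and 772 bp for H3K4me1. Of the paired promoters, 7801 met 1 H3K4me1 region and 4782 met more, at most 6, and the H3K4me1 regions covered a median of 76.8% of the promoter region.

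As deposited, the +HOT libraries summed to 2441698 (iMEF1) and 6978481 (iMEF2) H3K4me3 reads in regions and to 7939532 and 8225505 for H3K4me1. The last sum is after division by the authors' factor of 1.1, and 9048056 reads were recovered from it. The deposited sum of H3K4me3 relative to that of H3K4me1 was 0.308 in iMEF1 and 0.848 in iMEF2. Counts were scaled by the authors within a line and a mark, not between the marks, and the antibodies differ. A ratio of 0 on the log2 scale therefore means equal reads per kb in these libraries, and not equal numbers of modified nucleosomes. The order of promoters along the ratio does not depend on this zero point, whereas the number on each side of it does.

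The upstream sequences of 4 genes from the ends of the ratio are shown first, because the promoters at both ends differed in their CpG content. Each is the stretch from 200 bp upstream to 1 bp upstream of the GENCODE TSS in the mm9 (NCBIM37) reference, written 5' to 3' on the strand of the gene. Capitals mark CG dinucleotides. H3K4me3 was higher than H3K4me1 at Thbs1 (thrombospondin-1, a matrix glycoprotein), Necap2 (a clathrin coat-associated protein) and Slc25a5 (a mitochondrial ADP/ATP carrier). H3K4me1 was higher at Akr1b8 (an aldo-keto reductase).
Thbs1, chr2:117937412-117937611, plus strand: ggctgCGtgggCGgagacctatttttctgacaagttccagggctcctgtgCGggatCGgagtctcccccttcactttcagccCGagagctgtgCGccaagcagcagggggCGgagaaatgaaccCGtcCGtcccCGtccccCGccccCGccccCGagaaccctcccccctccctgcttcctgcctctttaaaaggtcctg
Necap2, chr4:140634273-140634472, minus strand: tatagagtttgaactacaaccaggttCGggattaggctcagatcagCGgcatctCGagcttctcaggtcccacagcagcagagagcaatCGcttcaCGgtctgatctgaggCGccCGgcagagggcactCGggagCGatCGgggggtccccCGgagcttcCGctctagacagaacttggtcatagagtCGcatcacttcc
Slc25a5, chrX:34335446-34335645, plus strand: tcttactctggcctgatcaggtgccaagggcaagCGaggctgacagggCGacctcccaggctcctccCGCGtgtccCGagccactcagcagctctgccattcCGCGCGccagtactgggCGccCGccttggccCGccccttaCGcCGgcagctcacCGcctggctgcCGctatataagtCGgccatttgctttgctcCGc
Akr1b8, chr6:34303919-34304118, plus strand: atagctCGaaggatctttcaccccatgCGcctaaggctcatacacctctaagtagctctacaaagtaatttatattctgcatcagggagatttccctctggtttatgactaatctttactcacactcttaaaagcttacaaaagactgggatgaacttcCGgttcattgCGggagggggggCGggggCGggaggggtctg
These windows held 13, 13 and 17 CG dinucleotides at Thbs1, Necap2 and Slc25a5 and 6 at Akr1b8. The median window held 15 over all tested promoters with a window, 17 at those called for H3K4me3 and 5 at those called for H3K4me1. Thbs1 and Necap2 were thus below the median of all tested promoters. The GC box letters GGGCGG, read on both strands, occurred 4 times at Thbs1, once at Slc25a5 and 2 times at Akr1b8, and were not in the window of Necap2. Of the Thbs1 window only 15 bases lay inside the H3K4me3 region, which starts at the TSS and runs into the gene.

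After deletion, H3K4me3 still exceeded H3K4me1 at most promoters, by less in iMEF1 than in iMEF2. The median tested promoter carried 75.6 (iMEF1) and 219 (iMEF2) H3K4me3 reads per kb in +HOT against 59.5 and 74.2 H3K4me1 reads per kb. The median log2 ratio of H3K4me3 to H3K4me1 was 0.33 in iMEF1 and 1.52 in iMEF2, which corresponds to ratios of 1.26 and 2.88. It was above 0 at 7400 promoters (61.3%) in iMEF1 and at 10291 (85.3%) in iMEF2. In both lines together H3K4me3 was above H3K4me1 at 7329 of 12064 promoters (60.8%) and below it at 1702 (14.1%). A further 2962 promoters (24.6%) were below 0 in iMEF1 and above 0 in iMEF2, and 71 (0.589%) showed the reverse. With the study's threshold of 0.58 applied to the log2 ratio in both lines, 4727 promoters (39.2%) were on the H3K4me3 side and 789 (6.54%) on the H3K4me1 side.

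H3K4me3 regions away from promoters had the opposite balance. At the 3774 tested regions of this kind the median +HOT H3K4me3 was 15.8 and 40.9 reads per kb and the median H3K4me1 65.5 and 75.1. Their median log2 ratios were -1.85 and -0.77, and 2980 of them (79.0%) were below 0 in both lines against 196 (5.19%) above 0. H3K4me1 was thus similarly dense at both kinds of region, and the difference lay in H3K4me3.

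**Figure D1:**
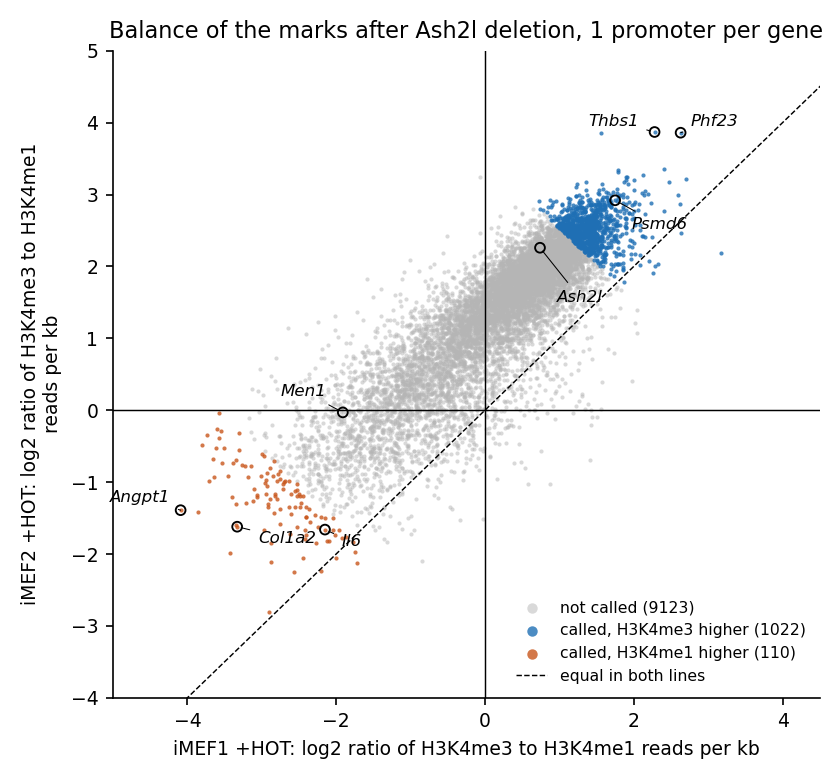
Log2 ratio of H3K4me3 to H3K4me1 reads per kb in +HOT KO cells, iMEF1 on the x axis and iMEF2 on the y axis, with 1 point per gene (10255, region nearest the TSS), solid lines at 0 and a dashed line at equal values. Blue points are the 1022 genes called for H3K4me3 and orange points the 110 called for H3K4me1 (limma), and most points lie above the dashed line.

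The order of promoters was shared by the lines, as the plot of both lines shows. The Pearson correlation of the ratio across the 12064 promoters was 0.861 and the Spearman correlation 0.865, as a description over regions of the same 4 libraries. The level was not shared. The ratio was larger in iMEF2 at 11687 promoters (96.9%), by a median of 1.21 (SD 0.56, log2), and the deposited sum of H3K4me3 relative to H3K4me1 in regions differed between the lines in the same direction. Library depth and the cells cannot be told apart here with 1 library per mark and line.

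The test of the ratio against 0 found H3K4me3 higher at more promoters than H3K4me1. The within-line differences of log2 reads per kb were tested with limma, with Benjamini-Hochberg adjustment to 0.05 over all 15838 tested regions. Over all regions 1286 (8.12%) had more H3K4me3 and 1139 (7.19%) more H3K4me1. Among promoters, 1270 of 12064 (10.5%) had more H3K4me3 and 213 (1.77%) more H3K4me1, and 10581 were not called. The standard error was 0.663 for each region, because limma pooled the spread over all regions, and a mean log2 ratio beyond 1.77 was called. Coq6 and Ecpas lay just inside this limit on the H3K4me3 side (1.77, adjusted p = 0.05 after rounding) and Pdss2 and Cdc37 just outside it. C1qtnf5 and Glt8d2 (-1.77) lay just inside on the H3K4me1 side, and Kpna2 and Hist1h2bb (-1.76) just outside.

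The calls depended on the zero point and on how the spread was estimated. With the median ratio of each line set to 0, which removes the shift between the lines and lowers the standard error to 0.209, limma called 4728 promoters (39.2%) relatively richer in H3K4me3 and 2414 (20%) relatively richer in H3K4me1. Over all regions these counts were 4794 (30.3%) and 5646 (35.6%). With both marks scaled to 1000000 reads in regions the split was 9506 (78.8%) to 229 (1.90%) at promoters and 9936 (62.7%) to 1201 (7.58%) over all regions. Without the line as a block limma called no promoter (2121 and 329 at an unadjusted p under 0.05). edgeR on the recovered reads (293 and 86 unadjusted) and limma with a mean-variance trend (303 and 269 unadjusted) called none either.

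Before deletion nearly every promoter carried more H3K4me3, and the balance moved toward H3K4me1 in both lines. The median log2 ratio at tested promoters was 2.37 (iMEF1) and 3.96 (iMEF2) in -HOT, and it was above 0 in both lines at 11093 promoters (92%). From -HOT to +HOT the median H3K4me3 went from 156 to 75.6 and from 590 to 219 reads per kb. The median H3K4me1 went from 30 to 59.5 and from 38.6 to 74.2 reads per kb. On the deposited scale the 2 marks contributed about equally to the shift in iMEF1 (median log2 changes of -0.95 for H3K4me3 and 0.97 for H3K4me1). H3K4me3 contributed more in iMEF2 (-1.38 and 0.94). This split depends on the scaling within each mark and was not computed on another scale.

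**Figure D2:**
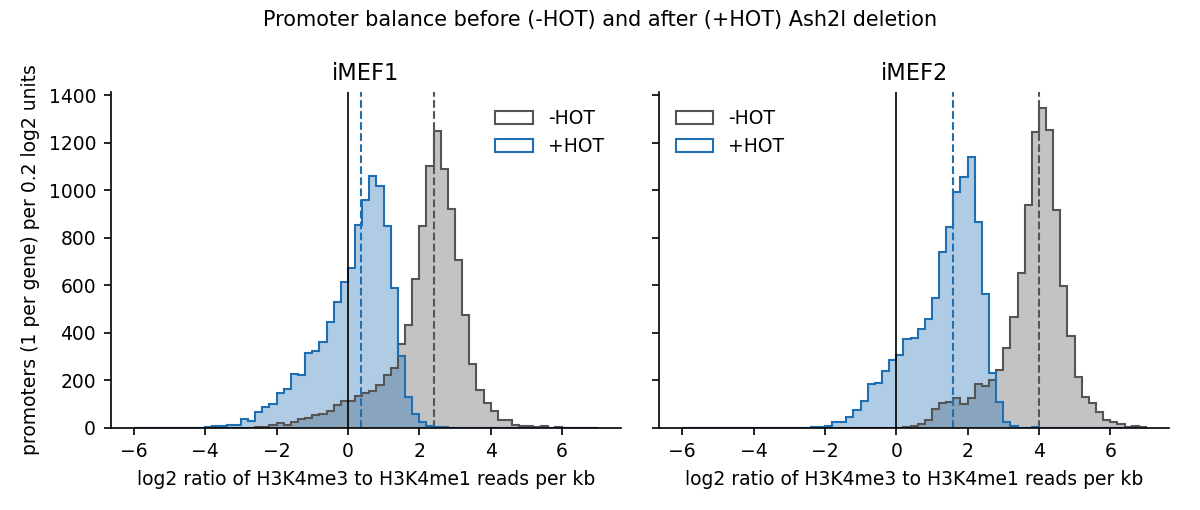
Distribution of the log2 ratio of H3K4me3 to H3K4me1 reads per kb (x axis) over 10255 genes, 1 promoter each (y axis, promoters per bin), in -HOT and +HOT KO cells of each line, with dashed lines at the medians. The medians went from 2.41 to 0.38 in iMEF1 and from 4.00 to 1.58 in iMEF2.

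Of the 11093 promoters with more H3K4me3 in both lines before deletion, 7317 (66%) kept this order in both lines, 2790 (25.2%) were below 0 in iMEF1 only, and 928 (8.37%) were below 0 in both. In the plot of both conditions the distributions moved down as a whole. The 928 promoters that crossed in both lines had medians of 23.2 and 51.8 H3K4me3 reads per kb in +HOT, and 71.8 and 324 in -HOT. All tested promoters had medians of 156 and 590 in -HOT, so those that crossed came from the lower part of the H3K4me3 range. Only 2 promoters were below 0 in both lines before deletion, and both remained so.

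The fall of the ratio was tested over 16442 regions with reads in -HOT or +HOT, of which 12396 were promoters. The ratio fell at 11848 promoters (95.6%) and rose at none (limma, 0 at an unadjusted p under 0.05), with a median change of -2.19. Its direction was downward in both lines at 12165 promoters (98.1%) and upward in both at 5 (0.0403%). With both marks scaled to 1000000 reads in regions the median change was -0.78, and the ratio fell at 2996 promoters (24.2%) and rose at 28 (0.226%), and over all regions at 3604 (21.9%) and 41 (0.249%). Over all regions without this scaling it fell at 15171 (92.3%). No promoter was called relative to the median change (1471 higher and 2143 lower at an unadjusted p under 0.05, limma), and none without the line as a block (2850 lower unadjusted).

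The genes with the highest residual H3K4me3 relative to H3K4me1 had roles in many parts of the cell. The 12 named here had the highest mean ratio among 968 genes that were called, were above 0 in both lines and had at least 100 H3K4me3 reads in each, with predicted genes and similar names left out. Their +HOT H3K4me3 ranged from 93.2 to 249 reads per kb in iMEF1 and from 252 to 689 in iMEF2, and their H3K4me1 from 16.7 to 41.7 and from 14.5 to 75.3. They were above the median promoter in H3K4me3 in both lines and below it in H3K4me1 in iMEF1, while in iMEF2 only Dync1i2 exceeded the median H3K4me1.

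Phf23, which encodes a PHD finger protein, had the highest ratio. Its promoter region (chr11:69809197-69811560, around the TSS) had 249 and 618 H3K4me3 reads per kb in iMEF1 and iMEF2 and 37.2 and 39.4 H3K4me1 reads per kb, a mean log2 ratio of 3.25 (SE 0.663, n = 2 lines, limma adjusted p = 0.00296). The H3K4me1 value rested on a region of 323 bp with 12 reads in iMEF1 and 12.7 in iMEF2. Slc25a5 (chrX:34335312-34336995) rested likewise on 251 bp with 7 and 3.64 H3K4me1 reads, and had 93.2 and 266 H3K4me3 reads per kb and a mean log2 ratio of 2.70 (adjusted p = 0.01).

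Thbs1 (chr2:117937597-117942306, centred in an intron by the annotation) had a wider base for its ratio, with 57 and 34.5 H3K4me1 reads over 2050 bp. It had 138 and 252 H3K4me3 reads per kb against 27.8 and 16.9 for H3K4me1, a mean log2 ratio of 3.07 (adjusted p = 0.00371). Necap2 (chr4:140632853-140634388) had 172 and 497 H3K4me3 reads per kb against 27.8 and 67.9, a ratio of 2.74 (adjusted p = 0.00928).

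A pair of cytoplasmic dynein genes, the motor that moves cargo toward the minus end of microtubules, was among the 12. Dynll1, a dynein light chain, had 168 and 462 H3K4me3 reads per kb against 31 and 44.7 H3K4me1 reads per kb (2.88, adjusted p = 0.00613). Dync1i2, an intermediate chain, had 207 and 689 against 36.9 and 75.3 (2.83, adjusted p = 0.00726). Vamp2, a vesicle SNARE, had 210 and 522 against 34.4 and 64.7 (2.79, adjusted p = 0.00831).

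The remaining 5 genes were Brwd1 (a bromodomain and WD repeat protein, 2.68), Capzb (a subunit of the actin capping protein, 2.60), Arid4b and Arid4a (subunits of Sin3 histone deacetylase complexes, 2.60 and 2.59) and Rbm39 (a splicing factor, 2.60). The H3K4me3 regions of these 12 genes were 1536 to 4710 bp wide, compared with a median of 1974 bp over all tested promoters. In -HOT their log2 ratios were 1.65 to 3.85 in iMEF1 and 2.42 to 4.81 in iMEF2. All 12 were thus on the H3K4me3 side before deletion, with 8 above and 4 below the median promoter in iMEF1 and 7 above and 5 below it in iMEF2.

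The genes at the other end had little H3K4me3 in a narrow region and a broad, dense H3K4me1 region across it. The 12 named were the lowest of 60 genes that were called, below 0 in both lines and had at least 100 H3K4me1 reads in each. Their H3K4me3 was 2.99 to 17.1 reads per kb in iMEF1 and 19.7 to 47.8 in iMEF2, and their H3K4me1 57.3 to 147 and 77.6 to 141. These ranges do not overlap within a line, but the genes were chosen on the ratio of these same values. The H3K4me3 regions held 1 to 19 reads in iMEF1 and 8 to 51 in iMEF2, so the counting error of H3K4me3 is large here, and with more than 20 reads of both marks required 14 promoters were called for H3K4me1.

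Angpt1, which encodes a ligand of the endothelial receptor TEK, had the lowest ratio of these 12. Its region upstream of the TSS (chr15:42509194-42509570) had 5.31 and 42.4 H3K4me3 reads per kb against 135 and 118 for H3K4me1, a mean log2 ratio of -2.74 (adjusted p = 0.00928). Plec, the cytolinker plectin, had 13.1 and 35.1 against 147 and 141 (-2.70, adjusted p = 0.0102). Omd, the matrix proteoglycan osteomodulin, had 17.1 and 29.3 against 144 and 137 (-2.50, adjusted p = 0.0148).

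Col1a2, which encodes a chain of type I collagen and is a defining gene of fibroblasts, was among them. Its region nearest the TSS (chr6:4454394-4454886, upstream of it) had 6.09 and 28.4 H3K4me3 reads per kb against 80.9 and 92.8 for H3K4me1 (-2.47, adjusted p = 0.016). Pdxk-ps, by its name a pseudogene of pyridoxal kinase, had 7.74 and 20.1 against 67.3 and 77.6 (-2.36, adjusted p = 0.0207), and Akr1b8 (chr6:34303478-34305074) had 10 and 29.4 against 82.9 and 95.1 (-2.32, adjusted p = 0.0222). The other 6 were Limch1 (an actomyosin-associated protein, -2.63), Cela1 (an elastase family protease, -2.33), Gsg1 (a germ cell gene, -2.30), Micall2 (an effector of Rab GTPases, -2.29), Klhl33 (a kelch-like protein, -2.25) and Tmem59l (-2.24). In -HOT all 12 were below 0 in iMEF1 (-2.02 to -0.36) and above 0 in iMEF2 (0.69 to 2.04).

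**Figure D3:**
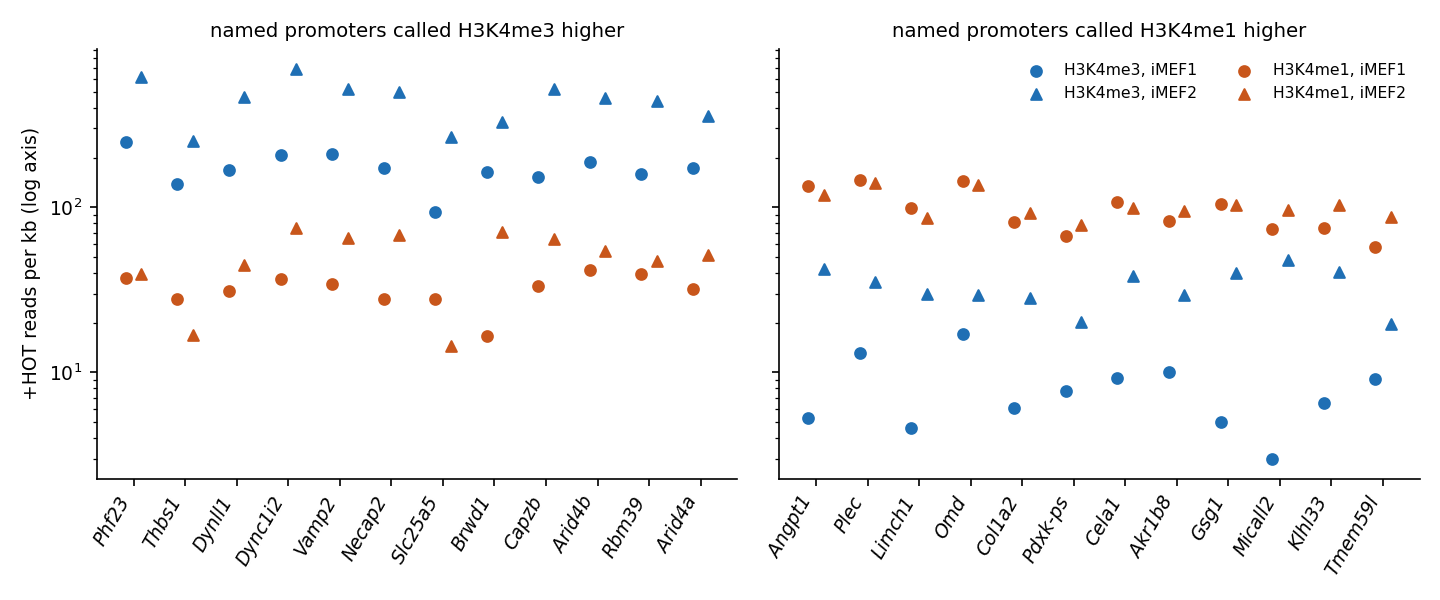
+HOT reads per kb of H3K4me3 and H3K4me1 in iMEF1 and iMEF2 at the 12 genes with the highest and the 12 with the lowest ratio among those called that had at least 100 reads of the higher mark in both lines and no excluded name (such as Gm), on a log axis. The genes were chosen on this ratio, so that the marks are separated within each line and change places between the groups. Phf23 is at 249 and 618 H3K4me3 reads per kb and Angpt1 at 5.31 and 42.4.

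The plot of the named genes shows both groups apart through their choice on the ratio. The low group did not always represent the whole promoter of its gene. In all, 2159 genes had more than 1 promoter H3K4me3 region, up to 7, and the region nearest the TSS was then often a narrow flank of a larger region inside the gene. At 656 genes the nearest region and the region with the highest -HOT H3K4me3 differed and were both tested. Their median log2 ratios were -1.29 and 0.08 (iMEF1 and iMEF2) at the nearest and 0.75 and 1.89 at the highest region, which was above the nearest in both lines at 579 genes (88.3%). At 213 genes the nearest was below 0 and the highest above 0 in both lines.

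Col1a2 shows this arrangement. The 493 bp region upstream of its TSS described above stood next to a region of 6691 bp (chr6:4455101-4461791) with 70.2 and 229 H3K4me3 reads per kb against 64 and 72.1 for H3K4me1, a mean log2 ratio of 0.90 (limma adjusted p = 0.273). Limch1 (0.46) and Micall2 (0.05) also changed side with the higher region, and Angpt1 (-0.70) and Plec (-0.19) were no longer called. Omd had the same region under both choices and remained at -2.50.

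Of the 110 genes called for H3K4me1 at the nearest region (1.07% of 10255), 61 had a single promoter region. Of the 110, 69 were also called for H3K4me1 at their highest region, and 10 were called for H3K4me3 there. The 1022 genes called for H3K4me3 at the nearest region (9.97%) depended less on this choice, with 1020 also called at their highest region. The same paired H3K4me1 region served more than 1 promoter region at 41.3% of the promoters called for H3K4me1, at 1.81% of those called for H3K4me3 and at 4.94% of all tested, so that some of the 213 regions, which belonged to 192 genes, are neighbours that share their H3K4me1 reads.

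The switch also occurred at genes of the cell cycle and of rapid transcriptional responses. Cdk4, a G1 cyclin-dependent kinase, had 16.7 and 37.6 H3K4me3 reads per kb at its nearest region (-1.57, adjusted p = 0.0696) and 173 and 593 at its highest (2.21, adjusted p = 0.0262). Jun, a subunit of AP1, was at -0.24 and 2.29 in the same order. Aldoa, a glycolytic aldolase, was at -0.42 and 2.01, and Foxc2, a forkhead factor of mesenchyme, at -1.81 (adjusted p = 0.0467) and 1.62 (adjusted p = 0.0632).

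Gene lists were described at the region nearest the TSS of each gene, beside the values of all 10255 tested genes. Over all genes 9.97% were called for H3K4me3, 1.07% for H3K4me1, and the median log2 ratios were 0.38 (iMEF1) and 1.58 (iMEF2). H3K4me3 was above H3K4me1 in both lines at 63.4% of genes and below at 11%. Relative to the median of each line, 40.6% were called for H3K4me3 and 16.6% for H3K4me1. No test of a list was made, and the lists were chosen with results of these data known.

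Genes of the basic machinery of protein synthesis, protein breakdown and respiration lay on the H3K4me3 side. Of the cytosolic ribosomal proteins 58 of 79 were tested, 25 had more H3K4me3 and none more H3K4me1 (limma), and 54 were above 0 in both lines, with medians of 1.15 and 2.35. Rpl11 of the large ribosomal subunit had 174 and 523 H3K4me3 reads per kb against 46.4 and 54.4 for H3K4me1 (2.57, adjusted p = 0.0124), and Rpl10 was lowest with 28.5 and 59.9 against 64.4 and 68.5 (-0.68, adjusted p = 0.415). The highest member was Gm15772 (2.70), which the name table gives as a pseudogene of Rpl26 and which stood in for that gene.

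Proteasome subunits were above 0 in both lines at each of the 23 tested of 31. Of them 14 had more H3K4me3 (limma), and all 23 were called for H3K4me3 relative to the median of each line. Psmd6, of the regulatory particle, had 208 and 635 H3K4me3 reads per kb against 61.3 and 83.5 (2.33, adjusted p = 0.0214), and Psmb3, of the catalytic core, was lowest with 96.4 and 298 against 64.8 and 85 (1.18, adjusted p = 0.151). Of 52 tested subunits of oxidative phosphorylation 17 had more H3K4me3, none had more H3K4me1, and 47 were above 0 in both lines. Cox7c of complex IV had the highest ratio (2.21, adjusted p = 0.0262) and Ndufa13 of complex I the lowest (-1.39, adjusted p = 0.0984).

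**Figure D4:**
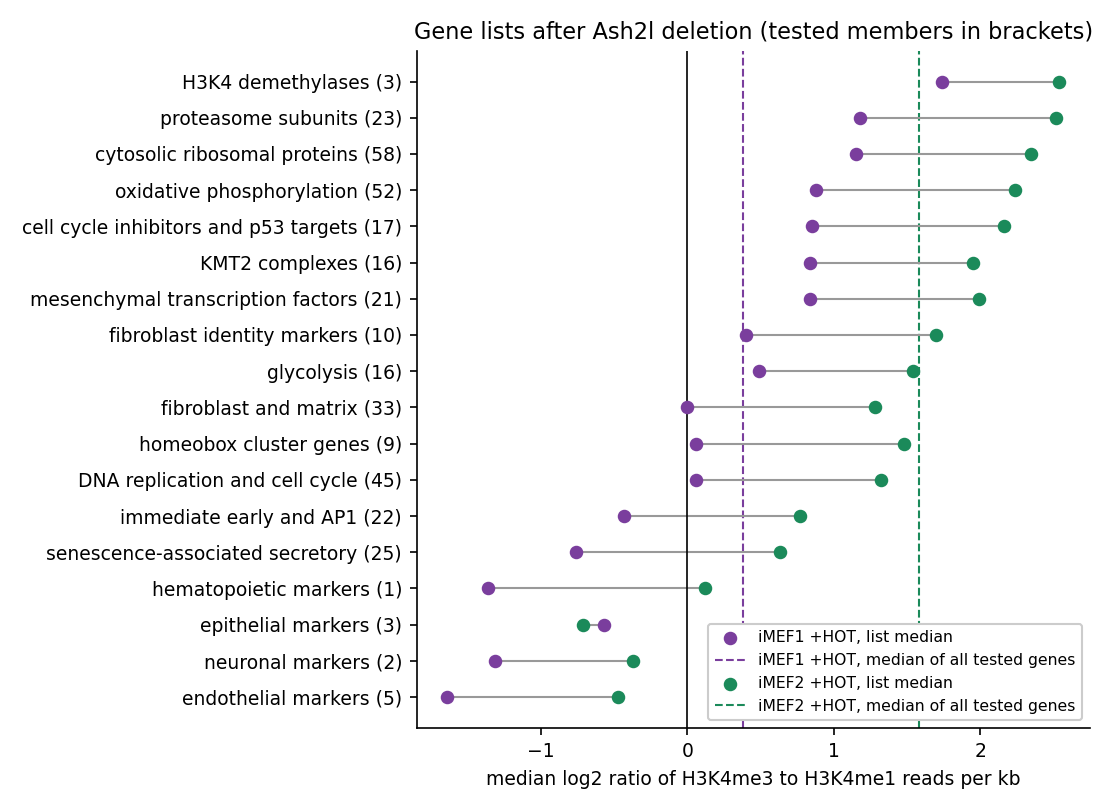
Median +HOT log2 ratio of H3K4me3 to H3K4me1 reads per kb (x axis) of each gene list in iMEF1 and iMEF2, with dashed lines at the medians of all 10255 tested genes and the number of tested members in brackets. The proteasome medians are 1.18 and 2.52, while those of the immediate early and senescence-associated secretory lists lie below 0 in iMEF1 (-0.43 and -0.76).

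Genes of glycolysis were close to all genes in their medians, while the medians of proliferation genes were below those of all genes in both lines. Of 45 tested genes of DNA replication and the cell cycle, 2 had more H3K4me3 (Orc6 of the origin recognition complex, 2.00, and the mitotic kinase Aurka, 1.91), and 25 were above 0 in both lines, with medians of 0.06 and 1.32. Relative to the median of each line, 8 of these 45 (17.8%) were called for H3K4me3 and 6 (13.3%) for H3K4me1, compared with 40.6% and 16.6% of all genes. The 16 tested genes of glycolysis were not called in either direction, and 12 were above 0 in both lines (medians 0.49 and 1.54). By contrast, of 17 tested inhibitors of the cell cycle and p53 targets, 4 had more H3K4me3 and 15 were above 0 in both lines (medians 0.85 and 2.16). These 4 were Cdkn1a, the p21 inhibitor, with 124 and 283 H3K4me3 reads per kb against 53.3 and 50.3 (1.85, adjusted p = 0.0441), Trp53 (1.81), its ubiquitin ligase Mdm2 (1.82) and the stress protein Sesn2 (2.37).

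Fibroblast genes were spread over both sides, and the medians of the fibroblast and matrix list were 0.00 and 1.28. Of 33 tested genes of fibroblasts and matrix, Thbs1 and Fbn1 (fibrillin-1, 1.89) had more H3K4me3, Col1a2 and Lox (lysyl oxidase, a collagen crosslinking enzyme, -1.99) had more H3K4me1, 16 were above 0 in both lines and 5 below. Of 21 tested mesenchymal transcription factors 14 were above 0 in both lines and 3 below. Prrx1, Snai1, Snai2 and Tbx18 had more H3K4me3 (1.91, 1.80, 1.80 and 1.82), and Foxc2 had more H3K4me1 at its nearest region (-1.81). Among the homeobox cluster genes 13 of the 23 with a promoter H3K4me3 region had no H3K4me1 region, and none of the 9 tested was called at its nearest region. At the region with the highest -HOT H3K4me3, Hoxa13 (2.05, adjusted p = 0.0334) and Hoxd13 (2.08, adjusted p = 0.0316) were called for H3K4me3.

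The medians of inducible genes, like those of the proliferation list and the fibroblast and matrix list, were below those of all genes. Of 22 tested immediate early and AP1 genes, 9 were above 0 in both lines, 4 below and 9 split, with medians of -0.43 and 0.77, and relative to the median of each line 4 were called for H3K4me3 and 9 for H3K4me1. Fosl2, an AP1 subunit, was the member called against 0, with 209 and 632 H3K4me3 reads per kb against 44.1 and 85.8 (2.55, adjusted p = 0.0124). Junb, another subunit, was lowest with 19.6 and 42 against 86.4 and 118 (-1.74, adjusted p = 0.052). The median of the mean ratio in this list went from 0.09 to 0.72 when the region with the highest -HOT H3K4me3 was used, while that of all genes went from 0.97 to 1.07.

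Of 25 tested genes of the senescence-associated secretory list, 6 were above 0 in both lines, 6 below and 13 split, with medians of -0.76 and 0.63. The growth factor Csf1 had 154 and 383 H3K4me3 reads per kb against 48 and 50.5 (2.30, adjusted p = 0.0232), and the chemokine Cxcl12 was called as well (1.80, adjusted p = 0.0473). The cytokine Il6 had 16.5 and 31 against 81.7 and 103 (-1.91, adjusted p = 0.0401). Relative to the median of each line 6 of these genes were called for H3K4me3 and 10 for H3K4me1.

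The enzymes that write and remove H3K4 methylation lay on the H3K4me3 side. Of 16 tested genes of the KMT2 complexes, 5 had more H3K4me3, none more H3K4me1, and 14 were above 0 in both lines (medians 0.84 and 1.95). The 5 were the methyltransferases Kmt2c and Setd1a (2.25 and 1.82), the SETD1 subunits Cxxc1 and Wdr82 (1.91 and 1.81) and the H3K27 demethylase Kdm6a (2.06), a partner of KMT2C and KMT2D. Men1, the menin subunit, was lowest at its nearest region (-0.97, adjusted p = 0.238) and at 1.26 (adjusted p = 0.13) at its highest. Of the H3K4 demethylases Kdm1a (160 and 351 against 46.8 and 58.6, 2.17, adjusted p = 0.0279) and Kdm5c (2.14) had more H3K4me3, and Kdm1b (1.26) was not called.

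The promoter of Ash2l itself kept H3K4me3, with 112 and 390 reads per kb in +HOT compared with 187 and 734 in -HOT. Its H3K4me1 was 67 and 81.1 in +HOT compared with 42.9 and 46.3 in -HOT, and its +HOT ratio of 1.50 was not called (adjusted p = 0.0797). Loss of an exon inside the gene need not alter reads at its start, so these reads do not check the deletion.

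Of the markers of other cell types 11 were tested, and the others had no promoter H3K4me3 region, no H3K4me1 region, too few reads or lay in the stretch of chromosome 1. Fibroblast identity markers had a promoter H3K4me3 region at all 13 genes, epithelial markers at 7 of 13, endothelial markers at 5 of 10, neuronal markers at 6 of 10 and hematopoietic markers at 1 of 12. None of these 11 genes was called, and the medians were -0.57 and -0.71 for 3 epithelial, -1.64 and -0.47 for 5 endothelial and -1.31 and -0.37 for 2 neuronal genes. The 10 tested fibroblast identity markers had medians of 0.40 and 1.70. Tek, the receptor of Angpt1, had 7.33 and 60.7 H3K4me3 reads per kb against 64.4 and 59 (-1.45, adjusted p = 0.0876). The only hematopoietic member, Cd34, had 25.6 and 100 against 67.4 and 92.8 and lay on opposite sides in the lines (-1.36 and 0.12). Both neuronal members, Tubb3 (-1.05) and Stmn2 (-0.63), lay on the H3K4me1 side. Of the 3 epithelial members, Krt19 (-0.72) and Ovol1 (-0.64) lay on that side, and Cdh1 was above 0 in both lines (0.72 and 0.79).

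Of the genes that the study describes by promoter, Hsp90b1, a chaperone of the endoplasmic reticulum, had more H3K4me3 than H3K4me1 in +HOT. It had 126 and 428 H3K4me3 reads per kb against 51.1 and 66.8 for H3K4me1 (1.98, limma adjusted p = 0.0366). Its H3K4me3 was lower than in -HOT (208 and 780 reads per kb). Cdh3 (P-cadherin) had 18.4 and 150 against 86.6 and 91.1, with ratios of -2.20 in iMEF1 and 0.72 in iMEF2 (adjusted p = 0.369). Mapk12 (a p38 kinase) had 27.3 and 59.9 against 50.6 and 40.2 (-0.16, adjusted p = 0.854). The promoters of Flywch2 (15.6 and 43.4 H3K4me3 reads per kb) and Atp9a (16.6 and 27.1) had no H3K4me1 region, and that of Rab27a, a GTPase of secretory organelles, was under the read minimum (14.4 and 54.5). Olig1, Olfr456 and Cdh17 had no promoter H3K4me3 region.

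The promoters on each side differed in width, CpG content and annotation, of which width enters the ratio through the reads per kb. Promoters called for H3K4me3 had a median width of 2293 bp and a median observed to expected CpG ratio of 0.651, compared with 1974 bp and 0.600 for all tested promoters. Those called for H3K4me1 were narrow (531 bp) and CpG-poor (0.355), and their H3K4me1 regions covered a median of 100% of them, compared with 76% and 77.5% for promoters called for H3K4me3 and all promoters. Fewer of them lay within 1000 bp of a TSS (54.9% compared with 85.9% and 87.5%), and more belonged to noncoding RNA genes (16.4% compared with 2.91% and 4.34%). A promoter passed the read minimum through either mark, so narrow regions with few H3K4me3 reads could enter through H3K4me1 alone. With more than 20 reads of both marks required, 14 promoters were called for H3K4me1, and these medians describe the 213 called without that requirement.

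The sides were chosen on the +HOT ratio, and their levels are given as a description. From -HOT to +HOT the median H3K4me3 of promoters called for H3K4me3 went from 213 to 141 reads per kb in iMEF1 and from 738 to 411 in iMEF2, and their H3K4me1 from 29.1 to 52.7 and from 37.5 to 68.9. Promoters called for H3K4me1 went from 28 to 10 and from 156 to 36.7 H3K4me3 reads per kb, and their H3K4me1 from 51 to 83 and from 63.8 to 91.4. The median log2 change of H3K4me1 was 0.84 and 0.89 at promoters called for H3K4me3 and 0.75 and 0.57 at those called for H3K4me1, which had more H3K4me1 before deletion. Across all tested promoters the ratio followed H3K4me3 in +HOT (Spearman 0.92 and 0.94, which shares the H3K4me3 reads with the ratio) and hardly H3K4me1 (-0.27 and 0.00).

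**Figure D5:**
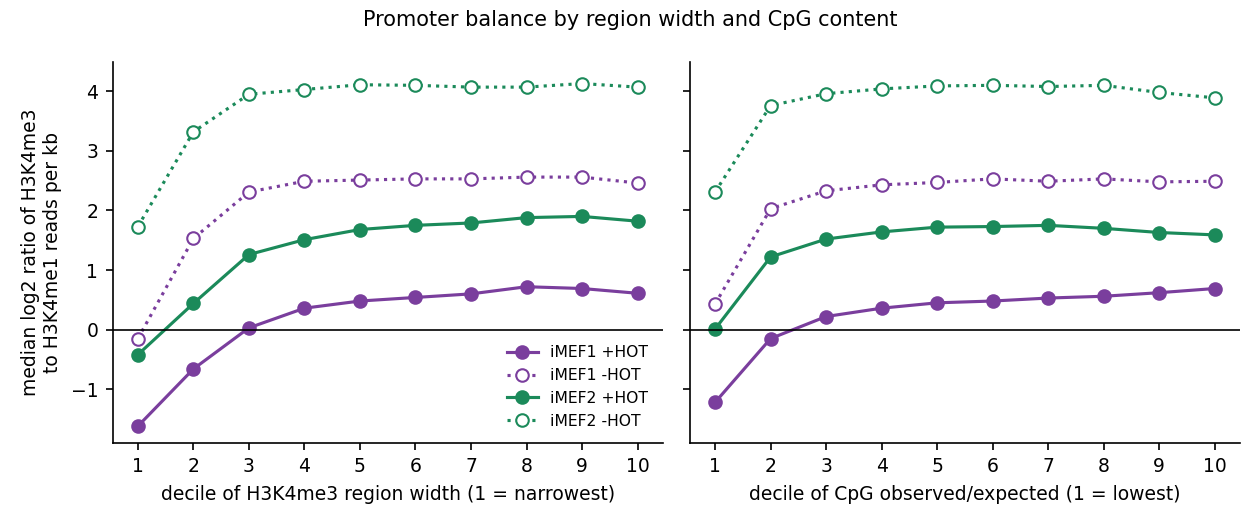
Median log2 ratio of H3K4me3 to H3K4me1 reads per kb (y axis) in +HOT (filled) and -HOT (open) cells of iMEF1 and iMEF2 over deciles of region width and of observed to expected CpG ratio of the 12064 tested promoters. The narrowest decile has +HOT medians of -1.62 and -0.42 and the most CpG-poor decile -1.22 and 0.01. The +HOT medians over width increase up to the eighth decile in iMEF1 and the ninth in iMEF2, and those over CpG in iMEF2 are highest in the seventh decile (1.75).

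Width separated the promoters up to a point, as the plot over deciles shows. In the narrowest decile (200 to 856 bp) the median ratios were -1.62 and -0.42 and 2.98% of promoters were above 0 in both lines. In the eighth decile they were 0.72 and 1.88, and 82.2% were above 0 in both, and the widest decile was not higher (0.61 and 1.82). Of the 213 promoters called for H3K4me1, 159 were in the narrowest decile. For the CpG ratio the lowest decile had medians of -1.22 and 0.01 and the highest 0.69 and 1.59. Spearman correlations across promoters with the ratio were 0.48 and 0.49 for width, 0.35 and 0.23 for the CpG ratio and 0.69 and 0.58 for the -HOT ratio. The regions share their libraries, and width, CpG content and H3K4me3 are not independent of each other.

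In the 200 bp upstream of the TSS the CpG counts differed in the same direction, as a description. Such a window existed for 1078 of the 1270 promoters called for H3K4me3 and for 34 of the 213 called for H3K4me1. Most of the latter entered through their H3K4me1 reads, and 14 were called with more than 20 reads of both marks required. Of the 9101 tested promoters with a GENCODE TSS of the gene inside the region, the median window held 15 CG dinucleotides, compared with 17 at the 1078 called for H3K4me3 and 5 at the 34 called for H3K4me1. The GC box letters GGGCGG occurred in 62.8% of all windows, 62.3% of those called for H3K4me3 and 26.5% of those called for H3K4me1. CCAAT was present in 31.7%, 30.5% and 26.5% and TATAAA in 3.94%, 4.17% and 5.88%, each read on both strands.

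The classes of promoter H3K4me3 that the authors deposited, drawn from the -HOT and +HOT reads of each line, ordered the ratio in both lines. In iMEF1 the 8423 tested promoters of the High class had a median log2 ratio of 0.67, the 2358 of the Medium class -0.74 and the 1274 of the Low class -1.79. In iMEF2 the medians were 2.01 for 6196 High, 0.79 for 5024 Medium and -0.63 for 844 Low promoters. Since the classes use the same H3K4me3 reads, this order is a description.

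The 2470 promoters without an H3K4me1 region carried little H3K4me3 after deletion, with medians of 20.9 and 40.3 reads per kb in +HOT and 49.1 and 189 in -HOT. The 12583 paired promoters had 72.3 and 211 in +HOT. The unpaired regions were narrower (642 bp compared with 1930 bp) and not CpG-poor (0.666 compared with 0.598). A missing H3K4me1 region shows that none was called there and gives no value of the mark.

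At the 8 genes with the largest falls of the ratio, H3K4me1 had been below the median promoter before deletion. The -HOT H3K4me1 reads are part of the change itself, and a choice of large falls favours low values of them, so this is a description. Among 8488 genes with at least 100 H3K4me3 reads in -HOT of both lines, the 8 largest mean changes were -5.52 to -5.03 (limma adjusted p = 0.00155 to 0.00163). They occurred at Fam171b, Pou2f1 (the octamer factor Oct-1), Stbd1 (a glycogen-binding protein), Ppp2r1a (the scaffold subunit of protein phosphatase 2A), Sfmbt2 (a Polycomb group protein), Rubcnl (an autophagy protein), Scaf1 (an SR-related splicing factor) and Tnrc18. Their -HOT H3K4me1 was 2.01 to 13 reads per kb in iMEF1 and 0 to 16.4 in iMEF2, compared with medians of 30 and 38.6 over all tested promoters. At Fam171b, Stbd1, Ppp2r1a and Sfmbt2 a library held 0 or 1 H3K4me1 read, so that the sizes there depend on the added read, while Tnrc18 had 29 and 34 reads and Scaf1 14 and 18.

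Pou2f1 is an example with both lines close. At its nearest region (chr1:167933027-167933992) H3K4me3 went from 190 to 36.2 reads per kb in iMEF1 and from 756 to 140 in iMEF2, while H3K4me1 went from 9.79 to 88.1 and from 11.4 to 110. The ratio changed by -5.33 and -5.52, and its +HOT mean was -0.46 (adjusted p = 0.584). At the region with the highest -HOT H3K4me3 of the same gene it was 2.13 (adjusted p = 0.0295). Scaf1 likewise was at -1.34 and 2.02.

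The smallest falls overlapped with the highest residual ratios. The +HOT ratio is part of the change itself, and a choice of small falls favours high values of it. The overlap is therefore a description. The 8 genes were Phf23 (0.50), Thbs1 (0.49), Slc25a5 (0.46), the homeobox gene Dlx3 (0.09), Snapc5 of the snRNA-activating complex (0.02), the hyaluronan link protein gene Hapln4 (-0.30), Rbm39 (-0.33) and the zinc finger gene Sp9 (-0.35), and none of these changes was called (adjusted p = 0.225 to 0.952). These are means of lines that moved in opposite directions at Slc25a5 (-0.51 and 1.43), Dlx3 (0.34 and -0.16), Snapc5 (0.28 and -0.24) and Sp9 (-1.24 and 0.55). Besides Phf23 and Slc25a5, few +HOT H3K4me1 reads lay under Dlx3 (12 and 19.1), Snapc5 (13 and 7.3), Hapln4 (10 and 10.9) and Sp9 (7 and 4.5). At Thbs1 H3K4me3 went from 206 to 138 and from 656 to 252 reads per kb, and H3K4me1 from 65.4 to 27.8 and from 56.6 to 16.9. Both marks were lower in +HOT in both lines at this promoter and at each of the other genes of these 8. At the median promoter H3K4me1 was higher in +HOT. A fall of H3K4me1 raises the change on which these genes were chosen, so this contrast is a description.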

How the data were processed

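The 4 KO +HOT libraries and their 4 KO -HOT partners were analysed, 1 per mark, line and condition. Per the study's methods, the authors trimmed reads with Trim_Galore, aligned them to mm9 with BWA, removed duplicates (Picard) and blacklisted regions with SAMtools, called regions with MACS2 (narrow for H3K4me3, broad for H3K4me1) and annotated them with Homer. Tool versions are not given in the sources used here. The deposited values are read counts per region for the library of lowest coverage of a line and mark. For the other library the deposited signal is the count divided by a factor (1.333, 1.01 and 1.1 in 3 of the 8 libraries). In these, 100% of values came out whole within 0.001 of a read, and edgeR on the recovered reads called no region. The deposited annotation also gives the distance to the nearest TSS in bp. The deposited fold changes and lists of lost and gained regions hold the authors' own comparisons and were not used. The deposited H3K4me1 table of iMEF1 held 14 repeated header lines and 5576 rows at fractional coordinates, all in the stretch of chromosome 1 named above, which were dropped.

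Reads per kb were computed with a pseudocount of 1 read per mark and region, H3K4me1 as the summed reads over the summed length of all regions sharing at least 1 bp. The within-line log2 difference was tested against 0 with limma 3.58.1 (R 4.3.3), and edgeR 4.0.16 was an alternative. The difference is taken within a line, which is thus the block. The line deviations of the marks correlated across regions at 0.175. With 2 lines, the p-values of the +HOT ratio rest on 1 spread pooled over all regions of these libraries. This spread includes the shift between the lines, and a region's own spread did not set its standard error of 0.663. In the test of the change the standard errors ranged from 0.363 to 1.17. The fit was tested on simulated data. The simulated lines had no shift between them, so the fit was not checked under a shift such as the one seen here. Sequence features and TSS were read from NCBIM37 with GENCODE. Alternatives were other scalings, pairings, read minimums, pseudocounts (5), overlap (50%) and thresholds (1 on the log2 scale), and leaving out a line.

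Named were up to 12 genes with the highest and the lowest mean ratio among those called, at the region nearest the TSS and with at least 100 reads of the higher mark in both lines, without Olfr, Gm, LOC, Rik, Mir and Snor names. Further named were the lowest, median and highest member of 18 gene lists, of which not every median is printed, genes the study names by promoter, and the 8 largest and 8 smallest falls. Jun, Cdkn1a and other list members outside this rule were chosen after their values were seen. The members, lists and rules were chosen with earlier results of these data known. The upstream sequence of a further gene is not reported here. Regions of genes with close copies or overlapping neighbours may share reads.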

Additional observations from a re-analysis of the deposited data

Results flagged for a closer look

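The median +HOT log2 ratio over all 15838 tested regions lay on opposite sides of 0 in the lines, at -0.08 in iMEF1 and 1.11 in iMEF2. The same held for the medians of 3 gene lists, namely the immediate early and AP1 genes (-0.43 and 0.77), the senescence-associated secretory genes (-0.76 and 0.63) and the hematopoietic markers, where Cd34 was the only tested member (-1.36 and 0.12). These differences between the lines were not tested, and iMEF2 was above iMEF1 at 96.9% of promoters. Among 87 named genes with a tested ratio, 15 had opposite signs in the lines, each below 0 in iMEF1 and above 0 in iMEF2.

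The 531 promoters in the stretch of chromosome 1 entered no comparison, but H3K4me1 of iMEF2 was deposited for them. In that line alone 449 passed the read minimum, with a median log2 ratio of 1.41, and H3K4me3 was above H3K4me1 at 360 of them (80.2%).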

How the results depend on the processing

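Promoters above 0 in both lines (7329) stayed within 1.5 times under all alternatives run, with 7400 to 10291 for a single line. Those below 0 in both (1702) numbered 1773 to 4664 for a single line, 866 with H3K4me1 reads in proportion to overlapped bases, 3666 with the median set to 0, 558 with over 20 reads of both marks, 902 with at least 50% of the H3K4me1 region overlapped and 682 with both marks scaled to 1000000 reads in regions (below, depth-scaled). The promoter median of 0.93 was 1.90 depth-scaled and 0.33 to 1.52 for a single line. The count beyond 0.58 on the H3K4me3 side (4727) was 2331 beyond 1 and 9301 depth-scaled. On the H3K4me1 side (789) it was 329 beyond 1, 489 within 1000 bp of a TSS, 460 in proportion to overlap, 2221 with the median set to 0, 159 with over 20 reads of both marks, 290 at 50% overlap and 186 depth-scaled.

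Promoters called for H3K4me3 (1270) numbered 5872 in proportion to overlap, 611 with the densest H3K4me1 region, 615 at 50% overlap, 2041 with a pseudocount of 5, 4728 with the median set to 0 and 9506 depth-scaled. Those called for H3K4me1 (213) numbered 323 in proportion to overlap, 14 with over 20 reads of both marks, 28 at 50% overlap, 116 with a pseudocount of 5, 117 within 1000 bp and 2414 with the median set to 0. Over all regions the H3K4me3 count (1286) was 6073, 621, 624, 2065, 4794 and 9936 under the corresponding settings, and the H3K4me1 count (1139) was 35 with over 20 reads of both marks, 95 at 50% overlap, 540 with a pseudocount of 5 and 5646 with the median set to 0. All 4 counts were 0 with edgeR, with limma with a trend and with no replicate block. The line is the replicate and the pairing of the marks, and without the block this pairing is dropped. The shift of the ratio between the lines enters the error of the main fit too.

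The count of falls of the ratio (15171 regions, 11848 promoters) was 3604 and 2996 depth-scaled and 0 relative to the median change and without the replicate block. The count of rises was 41 and 28 depth-scaled, and the median change was -0.78. Where the main or the alternative value was called, signs reversed with the region of highest -HOT H3K4me3 at Limch1 (0.46), Col1a2 (0.90), Micall2 (0.05), Pou2f1 (2.13), Scaf1 (2.02), Cdk4 (2.21), Aldoa (2.01), Foxc2 (1.62) and Hoxa13 (2.05). They reversed when depth-scaled at Mapk12 (0.81), Fam171b (0.87), Tnrc18 (0.88) and Hoxa13 (0.77), and in proportion to overlap at Fam171b (1.68) and Stbd1 (1.79). Of the other values of named genes, 907 were called in the same direction or under neither setting, 160 lost the call and 82 gained it. The 907 include changes of sign where neither value was called. Examples are Men1 (-0.97 to 1.26 at the highest region) and Cdh3 (-0.74 to 0.23 depth-scaled). Except for the settings that change the scale, the overlap or the error by construction, the cause was not tested.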
